A study of Homo sapiens with 10 samples.

Results

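BEAS2B, a human bronchial epithelial cell line, was transfected with microRNA mimics or with oligonucleotides that are not mimics, and the libraries were compared by whether a mimic had been given. The 6 libraries of miR3124_mimic (miR-3124-5p mimic), miR200b_mimic (miR-200b-3p mimic) and the 3-miRNA mixed group formed one side. The 4 libraries of miRcontrol (a scrambled miRNA control) and miR92b_inhibitor (an inhibitor of miR-92b) formed the other, and these are all 10 libraries of the series. The comparison asks which transcripts moved whatever the seed of the mimic, so a change had to be present in each of the 3 mimic-receiving groups. All groups were transfected with the same cationic lipid reagent, and each group holds 2 libraries. The mixed group received both mimics and the inhibitor together, so that 2 distinct mimics underlie the 3 groups. The sources used here do not say whether the scrambled control is a duplex like a mimic, whether the one final concentration given for the oligonucleotides applies to each of them or to their sum in the mixed group, or whether the 2 libraries of a group came from separate transfections. "Without a mimic" therefore means without the miR-3124-5p or miR-200b-3p mimic, and p-values may measure only technical spread between libraries.

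A microRNA mimic is a synthetic RNA duplex of which one strand is loaded into an Argonaute protein, the core of the RNA-induced silencing complex (RISC). Bases 2 to 8 of the loaded strand, the seed, pair with matching sites, mostly in the 3′UTRs of mRNAs, and GW182 proteins (TNRC6A to TNRC6C) then recruit deadenylases and decapping enzymes. Mimics use the same Argonaute proteins as the microRNAs that the cell makes itself. The mature sequences below, from RefSeq (GRCh38.p14), show that the 2 mimics share no seed with each other or with either arm of miR-92b. Capitals mark the seed.
miR-3124-5p: uUCGCGGGcgaaggcaaaguc
miR-200b-3p: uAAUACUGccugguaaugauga
miR-92b-5p: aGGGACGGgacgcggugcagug
miR-92b-3p: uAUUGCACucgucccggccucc
The mature miR-3124-5p lies at chr1:248826383-248826403 and miR-200b-3p at chr1:1167160-1167181, both on the plus strand. The labels do not give the arm of miR-92b that the inhibitor blocks, so both arms are shown.

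Library totals ran from 13587666 to 18503890 counts, and normalization factors from 0.985 to 1.016. MicroRNAs are not measured by these poly(A)-selected mRNA libraries, so the labels were checked with ZEB1 and ZEB2, transcription factor genes that miR-200b-3p is known to silence. ZEB2 had 6.44 to 10.3 normalized CPM (read counts scaled to a common library total) in the 4 libraries with the miR-200b-3p mimic and 30.8 to 47.2 CPM in the other 6. ZEB1 had 25.6 to 29.8 CPM against 56.4 to 74.7 CPM. In both genes the 4 libraries that received the miR-200b-3p mimic were the lowest, as the labels have it. The ZEB1 levels of miR3124_mimic, 59.4 and 56.4 CPM, also lay below all libraries without a mimic, whereas its ZEB2 levels lay above them. Of the epithelial markers, KRT8 had 795 to 1390 CPM and KRT18 601 to 1310 CPM in every library. The mesenchymal markers VIM, at 799 to 4250 CPM, and CDH2, at 219 to 259 CPM, were also high, and CDH1 reached 0.0547 to 10.9 CPM. Both lists also hold genes that were nearly silent. The epithelial markers KRT5, KRT14, ESRP1, GRHL2, OVOL1, RAB25 and TP63 had at most 0.484 CPM, and MAL2 had no count. The mesenchymal markers COL1A2, COL3A1, FAP and LUM had at most 0.239 CPM, and DCN had no count. Of the leukocyte genes, PTPRC and CD3E had at most 2 counts in any library, whereas CD68 had 17.3 to 40.7 CPM and CD14 0.374 to 12.7 CPM.

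In edgeR's quasi-likelihood fit of all groups, 561 of 14884 genes differed between the mean of the mimic-receiving groups and the mean of the groups without a mimic at a fold of at least 2 and a Benjamini-Hochberg adjusted p under 0.05, which is 3.77% of the genes tested. Of these, 432 were higher (2.9%) and 129 lower (0.867%) with a mimic. A mean over groups can be carried by one strong group, and this was common. Only 156 of the 561 genes also passed when each mimic-receiving group was set against each group without a mimic (6 pairs, an adjusted p under 0.05 and the same sign in each). Of the other 405 genes, 97 passed against both groups without a mimic only in miR3124_mimic, 31 only in miR200b_mimic and 16 only in the mixed group, 100 passed in miR200b_mimic and the mixed group, 64 in miR3124_mimic and the mixed group, 19 in the 2 single-mimic groups and 78 in none. With no minimum fold, 1078 genes passed all 6 pairs (7.24%), 641 of them higher (4.31%) and 437 lower (2.94%) with a mimic. In 129 of the rises and 36 of the falls even the weakest of the 6 pairs reached a fold of 1.5, and in 37 and 11 it reached 2. The 6 libraries lay wholly above the 4 in 7.46% and wholly below in 6.13% of all genes tested.

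Differences between groups of one side are not error in that fit, and they were counted as error in 2 further fits. The first of these takes the libraries of a side as independent replicates. Libraries of a group were correlated (0.794 in the second fit), so p-values of the first may be too small. A fit of 2 conditions (6 against 4 libraries) called 295 genes (1.98%) at a fold of 2, 238 higher (1.6%) and 57 lower (0.383%). In it 1679 genes had an adjusted p under 0.05 (11.3%), and 1030 of them were among the 1078. In limma-voom with the group as a random block, the strictest of the 3 fits, 74 genes were called (0.497%), of which 54 were higher (0.363%) and 20 lower (0.134%). There 317 genes had an adjusted p under 0.05 (2.13%), and 314 of them were among the 1078. The 1078 genes were picked from the same libraries, so both overlaps are in part fixed by the 6-pair rule. With the groups themselves as the units, 3 against 2 allow 10 arrangements, so that the smallest one-sided p an exact permutation test could give is 0.1.

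The most consistent rises were ranked by the weakest of the 6 pairs among genes with a mean of at least 1 CPM over all libraries. All of the 12 but PPL reached that mean only through the libraries with a mimic, so their low levels without one are in part set by this limit. For rises and falls named by this ranking, the ranking also in part fixes that libraries with and without a mimic lie apart. PPL, which encodes periplakin, a protein of desmosomes and the cornified envelope (chr16:4882507-4937148, GRCh38.p14), had 1.09 and 1.73 CPM in miRcontrol and 1.58 and 0.985 CPM in miR92b_inhibitor. It had 8.06 and 8.83 CPM in miR3124_mimic, 15.4 and 14.6 CPM in miR200b_mimic, and 7.19 and 8.45 CPM in the mixed group. The groups did not overlap, the log2 fold change was 2.89 ± 0.14 (SE) and the adjusted p was 8.12e-23 in edgeR's quasi-likelihood test. PPL was the only gene of the 12 most consistent rises that also passed limma-voom with the group as a block (adjusted p = 0.0139).

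LCK, a Src-family kinase gene best known from T cells (chr1:32251265-32286165), was nearly silent without a mimic, at 0.0572 and 0.119 CPM in miRcontrol and 0 and 0.109 CPM in miR92b_inhibitor. With a mimic it reached 0.683 and 0.566 CPM in miR3124_mimic, 1.496 and 1.44 CPM in miR200b_mimic and 3.26 and 2.69 CPM in the mixed group. At most 3 counts in each library without a mimic leave only a bound. The mean of LCK over the 6 libraries with a mimic was 9.54-fold the level of 3 counts (0.177 CPM per library). The same kind of bound was 9.67-fold for SYT17 (a synaptotagmin), 9.68-fold for RUBCNL (a regulator of autophagy) and 12.5-fold for SLCO2A1 (a prostaglandin transporter). These bounds do not hold for each group, since weaker groups lay closer to the level of 3 counts. Group means were 0.624 CPM for LCK and 0.470 CPM for RUBCNL in miR3124_mimic, and 0.567 CPM for SYT17 in miR200b_mimic. Of the 432 genes that were higher, 29 lay at this floor in every library without a mimic. The order of the groups was not shared by these genes. SYT17 was highest in miR3124_mimic, at 3.14 and 3.28 CPM, and had 0.673 and 0.460 CPM in miR200b_mimic, whereas RUBCNL had 0.205 and 0.736 CPM in miR3124_mimic and 2.69 and 2.93 CPM in miR200b_mimic.

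The other 7 of these rises had between 0.0547 and 0.817 CPM in every library without a mimic and between 0.956 and 6.96 CPM with a mimic. They were MDFI (an inhibitor of myogenic transcription factors), TMC6 (a transmembrane channel-like protein), C4orf26 (an enamel matrix protein), ADGRF1 (an adhesion G protein-coupled receptor), GLP2R (the receptor of glucagon-like peptide 2), CPNE5 (a calcium-dependent copine) and SLC44A3 (a choline transporter-like protein). Their log2 fold changes ran from 1.73 ± 0.23 for SLC44A3 to 4.06 ± 0.28 for ADGRF1, and no library with a mimic overlapped a library without one.

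Rises were also seen in well-expressed genes, which are better measured. Among genes with a mean of at least 20 CPM, a limit added after values were seen, CXADR (the coxsackievirus and adenovirus receptor of tight junctions, chr21:17513043-17636262) had 17.4 to 20.4 CPM in the 4 libraries without a mimic. It had 71.5 and 73.0 CPM in miR3124_mimic, 51.5 and 49.4 CPM in miR200b_mimic and 75.3 and 70.1 CPM in the mixed group (log2 fold change 1.79 ± 0.05, adjusted p = 1.34e-32, and 0.000349 in limma-voom with the block). IL1RAP, the shared co-receptor of interleukin 1 family signals (chr3:190514085-190659750), went from 36.5 to 41.1 CPM without a mimic to 88.3 to 96.1 CPM with one. DYSF, which encodes the membrane repair protein dysferlin (chr2:71453561-71686763), had 86.9 to 96.2 CPM against 193 to 233 CPM. These libraries of the 3 mimic-receiving groups lay close together, although the 2 mimics have unrelated seeds. The interleukin 6 receptor gene IL6R had 9.13 to 14.8 CPM against 31.4 to 52.99 CPM, and the vitamin D receptor gene VDR 10.4 to 11.7 CPM against 25.1 to 36.1 CPM. ZNF483 (a zinc finger protein), ADAMTS15 (a secreted metalloprotease) and CTNNBIP1 (an inhibitor of beta-catenin) were the remaining 3 of the top 8, with log2 fold changes of 1.28 ± 0.06, 2.01 ± 0.06 and 1.57 ± 0.06. ADAMTS15 was uneven, at 101 and 99.3 CPM in miR3124_mimic and 27.1 and 26.9 CPM in miR200b_mimic.

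The most consistent falls were ranked in the same way. TMEM158, a membrane protein gene (chr3:45224466-45226287), had 58.8 and 55.5 CPM in miRcontrol and 62.0 and 58.4 CPM in miR92b_inhibitor. It had 14 and 14.3 CPM in miR3124_mimic, 15.3 and 18.9 CPM in miR200b_mimic, and 16.3 and 15.3 CPM in the mixed group. The log2 fold change was -1.90 ± 0.05 with an adjusted p of 1.45e-32 in edgeR's quasi-likelihood test and 2.93e-05 in limma-voom with the block. Levels in the 3 mimic-receiving groups were alike, and all 6 libraries lay below the 4 without a mimic.

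DKK1, a secreted inhibitor of Wnt signalling (chr10:52314281-52317657), had 205.5 to 254 CPM in the libraries without a mimic, 64.0 and 62.7 CPM in miR3124_mimic, 91.2 and 96.0 CPM in miR200b_mimic and 84.9 and 90.8 CPM in the mixed group. Its log2 fold change was -1.54 ± 0.03 (adjusted p = 3.95e-38 in edgeR's test). SYDE1, a GTPase-activating protein gene (chr19:15107401-15114974), had 111 to 114 CPM without a mimic, 29.5 and 31.3 CPM in miR3124_mimic, 43.4 and 50.7 CPM in miR200b_mimic and 27.4 and 25.2 CPM in the mixed group. LPAR1, a receptor of lysophosphatidic acid (chr9:110873263-111038998), had 105 to 111 CPM without a mimic and 39.0 to 52.8 CPM with one. In each of these 3 genes the 6 libraries lay below the 4 with no overlap. DIO2, the deiodinase that activates thyroid hormone, had 5.66 to 7.28 CPM against 1.81 to 2.36 CPM. TMEM158, DIO2, SYDE1, DKK1 and LPAR1 were the 5 of the 12 most consistent falls that passed limma-voom with the group as a block.

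The remaining 7 of the 12 falls were EPHA4 (an ephrin receptor), TMEM171, MPP7 (a scaffold protein of cell junctions), FBXO43 (an inhibitor of the anaphase-promoting complex) and the histone genes HIST1H2BH, HIST1H1B and HIST1H2BF. Their log2 fold changes lay between -1.48 ± 0.18 for TMEM171 and -1.04 ± 0.09 for MPP7. HIST1H2BH was the only gene of the 24 whose groups overlapped, with 1.31 CPM in a miRcontrol library and 1.38 CPM in a miR200b_mimic library. Among the 8 falls at a mean of at least 20 CPM, which TMEM158, SYDE1, DKK1 and LPAR1 head, the other 4 were CNIH4, ST3GAL2, CEP41 (a centrosomal protein gene, log2 fold change -0.91) and ARPC1A. CNIH4, a cargo receptor of the early secretory pathway, had 46.2 to 49.0 CPM against 24.5 to 27.9 CPM, the sialyltransferase gene ST3GAL2 had 50.9 to 52.8 CPM against 23.8 to 31.6 CPM, and ARPC1A, a subunit of the actin-nucleating Arp2/3 complex, had 243 to 257 CPM against 148 to 160 CPM. HAS2, a hyaluronan synthase gene named here after its values were seen, lay under the limit of 1 CPM. It had 0.955 to 3.15 CPM without a mimic and 0.0575 to 0.374 CPM with one.

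**Figure D1:**
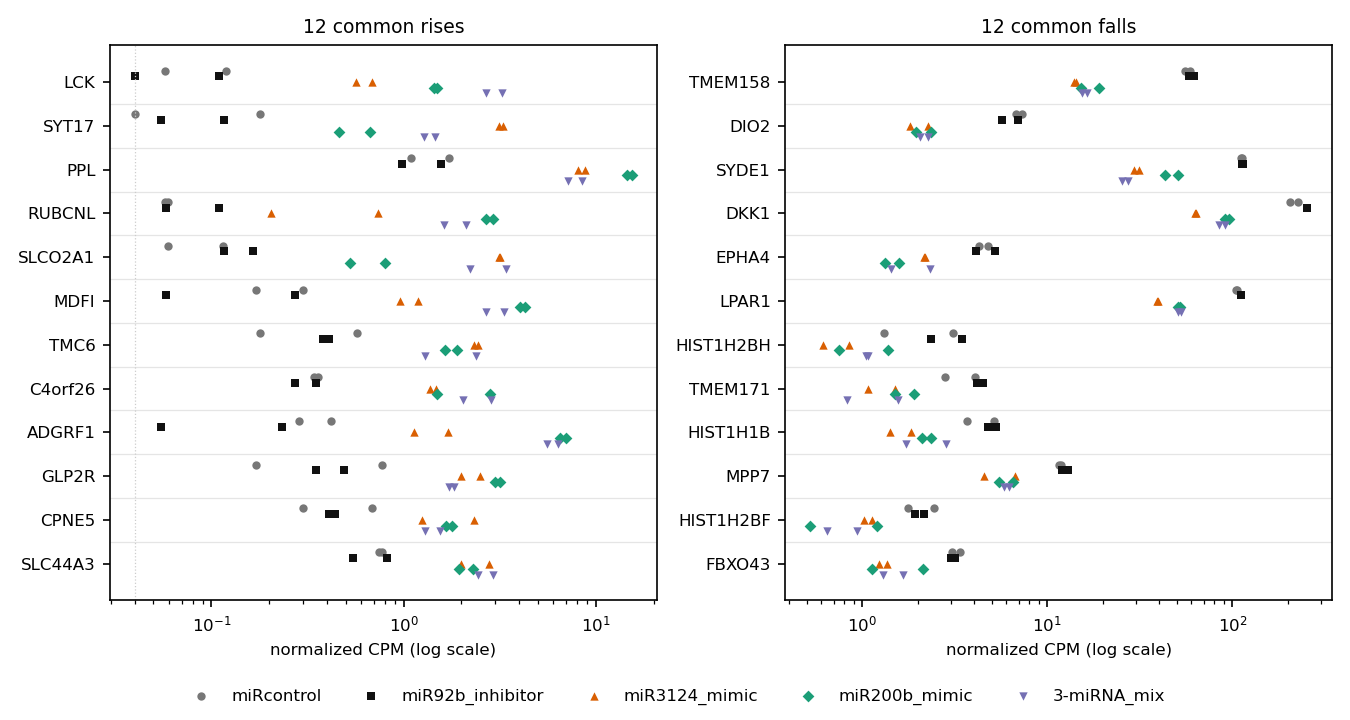
Normalized CPM (log scale) of the 12 most consistent rises and 12 most consistent falls in each of the 10 libraries, a point per library, coloured by group; values under 0.04 CPM are drawn on the dotted line. Grey and black points (without a mimic) lie apart from the coloured points (with a mimic) in all rows but HIST1H2BH, which the ranking by the weakest pair in part fixes. The 3 coloured groups keep no common order.

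Most of the 1078 consistent changes were small. Their median absolute log2 fold change was 0.503, and 641 of them changed by less than 1.5-fold. Taking for each gene the change of each mimic-receiving group against the mean of the groups without a mimic, the largest and smallest of the 3 changes differed by a median of 0.271 on the log2 scale. This span was under 0.25 in 488 genes and over 1 in 54. The change was largest in miR3124_mimic in 493 genes, in miR200b_mimic in 384 and in the mixed group in 201, so the group with 2 mimics was not the one with the largest change in most genes. Genes with a span under 0.25, at least 20 CPM and the largest changes included NDRG1, a stress-responsive gene, with changes of 1.21 in miR3124_mimic, 1.20 in miR200b_mimic and 1.25 in the mixed group. DNAJB9, a chaperone of the endoplasmic reticulum, changed by 0.865, 0.903 and 0.805, and TDG, a DNA glycosylase of active demethylation, by 0.753, 0.718 and 0.875. Even changes across the mimics did not mean equal levels without a mimic. NDRG1 had 54.4 and 62.2 CPM in miRcontrol and 32.0 and 33.6 CPM in miR92b_inhibitor. Of the 1078 genes, 36.4% differed between miR92b_inhibitor and miRcontrol at an adjusted p under 0.05, beside 35.7% of all genes tested.

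The largest pooled changes that did not pass all 6 pairs show what the mean alone would have brought in. CDH1, the E-cadherin gene of epithelial junctions, had 0.0547 to 0.172 CPM without a mimic, 10.9 and 9.03 CPM in miR200b_mimic, 2.54 and 1.94 CPM in the mixed group, and 0.205 and 0.396 CPM in miR3124_mimic. SCEL, a cornified envelope gene, had 8.15 and 7.08 CPM in miR200b_mimic and 0.205 and 0.509 CPM in miR3124_mimic, and the transcription factor gene ZBED2 had 6.73 and 5.29 CPM and 0.410 and 0.113 CPM. These 3 genes were high in the 2 groups with the miR-200b-3p mimic. In bulk RNA of this kind, more cells that express a gene and more RNA per cell cannot be told apart. ACTN1, which encodes the actin crosslinker alpha-actinin 1, was the reverse case, with 220 and 206 CPM in miR3124_mimic and 303 and 320 CPM in the mixed group, but 1048 and 1047 CPM in miR200b_mimic, beside 1037 to 1203 CPM without a mimic. DUSP19, a dual-specificity phosphatase gene, had 2.25 and 0.736 CPM in miR3124_mimic and 0.299 to 0.592 CPM in the other 4 libraries with a mimic. The read-through symbol RPS10-NUDT3 shares exons with its parent genes, so its counts are uncertain; its pooled log2 fold change of -4.05 ± 0.86 was -1.38, with an adjusted p of 1, without miRcontrol replicate 2.

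The mimic effect was measured a second time on other libraries, because the mixed group and miR92b_inhibitor both received the inhibitor. Without the inhibitor, the mean of miR3124_mimic and miR200b_mimic against miRcontrol gave 473 genes (3.18%), with 344 higher (2.31%) and 129 lower (0.867%) at a fold of 2. With it, the mixed group against miR92b_inhibitor gave 620 (4.17%), with 452 higher (3.04%) and 168 lower (1.13%). The comparisons share no library. Of the rises, 190 were called in both, which is 55.2% of the first list and 42.0% of the second. Of the falls, 49 were called in both (38.0% and 29.2%), and 4 genes were called in opposite directions. Over all 14884 genes the log2 fold changes of the 2 comparisons had a Pearson correlation of 0.560 and a Spearman correlation of 0.593, as a description, since genes do not stand for replicates. The mixed group holds the same 2 mimics as the single-mimic groups, so shared mimic-specific changes are part of this likeness.

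**Figure D2:**
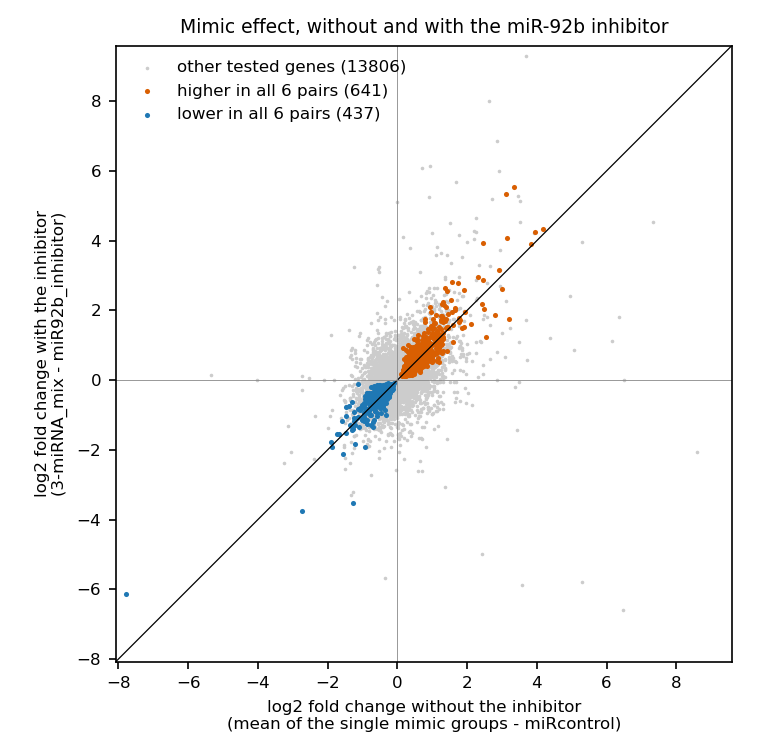
Log2 fold change of each of the 14884 genes without the inhibitor (mean of the single-mimic groups minus miRcontrol, x axis) and with it (mixed group minus miR92b_inhibitor, y axis), with the line of equality. The 641 genes higher (orange) and 437 lower (blue) in all 6 pairs lie along the line, which the 6-pair rule in part fixes, and the grey genes hold the largest departures.

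The difference of these 2 effects was tested as an interaction, and at a difference of 2-fold the signed log2 effect was higher with the inhibitor than without it in 61 genes (0.41%) and lower in 39 (0.262%). A higher signed effect includes a fall that became smaller. The groups differ also in the number of mimics, so that inhibitor and mimic number cannot be told apart. Among the 1078 consistent genes 9 were called. ITGB4, an integrin of hemidesmosomes, had 56.2 and 56.8 CPM in miRcontrol and 31.6 and 26.6 CPM in miR92b_inhibitor, with 84.4 and 87.6 CPM in miR3124_mimic, 240.3 and 246 CPM in miR200b_mimic and 189 and 173 CPM in the mixed group. Its log2 change was 1.36 without and 2.64 with the inhibitor. ANGPTL4, a secreted inhibitor of lipoprotein lipase, moved the other way, with 2.55 without and 1.24 with the inhibitor. Its libraries had 1.43 and 1.61 CPM in miRcontrol and 3.33 and 3.01 CPM in miR92b_inhibitor, so the baseline differed while the levels with a mimic lay between 6.21 and 11.4 CPM.

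The genes that make microRNAs or act with them changed unevenly. Of 15 genes of RISC and microRNA biogenesis, 9 were higher (25.5% of all genes were higher at an adjusted p under 0.05) and 5 lower (26.8% were lower), and the median log2 fold change was 0.23, beside -0.0088 for all genes. DICER1, the ribonuclease that cuts precursor microRNAs, had 133 to 161 CPM without a mimic, 231 and 229 CPM in miR3124_mimic, 316 and 318 CPM in miR200b_mimic and 245 and 256 CPM in the mixed group (log2 fold change 0.85 ± 0.03). AGO2, the slicing Argonaute, had 209 to 236 CPM against 252 to 302 CPM, a log2 fold change of 0.34 ± 0.03, and AGO1 had 86.8 to 105 CPM against 113 to 144 CPM. TNRC6B, a GW182 protein gene, rose mostly in miR3124_mimic, at 167 and 168 CPM beside 88.4 and 91.8 CPM in miR200b_mimic and 69.6 to 84.7 CPM without a mimic. These 4 were higher in all 6 pairs. HSP90AA1 and HSP90AB1, chaperones that help to load Argonaute and have many other clients, were lower in all 6. HSP90AA1 had 2921 to 3207 CPM without a mimic and 1514 to 2025 CPM with one, a log2 fold change of -0.73 ± 0.02. In limma-voom with the block, 1 of the 15 genes was higher (1.38% of all genes) and 1 lower (0.752%), DICER1 (adjusted p = 0.00231) and HSP90AA1 (adjusted p = 0.00178), while AGO1 (0.123), AGO2 (0.0727), TNRC6B (0.103) and HSP90AB1 (0.158) lost their calls. In the fit of 2 conditions 4 were higher (6.78%) and 1 lower (4.5%).

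Genes of deadenylation and decay were spread around no change, with 7 of 22 higher (25.5% of all genes), 7 lower (26.8%) and a median of 0.03. DCP2, the catalytic subunit of the decapping enzyme, stood out with 70.7 to 80.2 CPM in the libraries without a mimic, 279 and 278 CPM in miR3124_mimic, 127 and 125 CPM in miR200b_mimic and 163 and 159 CPM in the mixed group (log2 fold change 1.23 ± 0.03, adjusted p = 1.53e-34 in edgeR's test). BTG2, an antiproliferative activator of deadenylation, was higher in all 6 pairs, and CNOT7, a deadenylase subunit of the CCR4-NOT complex, was lower, by 0.67 ± 0.08 and -0.46 ± 0.03 on the log2 scale. In limma-voom with the block DCP2 kept its call (adjusted p = 0.0123), and BTG2 (0.133) and CNOT7 (0.0542) lost theirs.

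Mitotic genes were lower with a mimic. All 29 tested genes of the mitosis list were lower at an adjusted p under 0.05 (26.8% of all genes), by 0.23 to 0.76 on the log2 scale. Their median was -0.47, and 13 of the 29 were lower in all 6 pairs (2.94% of all genes). Their summed level was 9373 and 9377 CPM in miRcontrol, 7471 and 7141 CPM in miR92b_inhibitor, 5854 and 5704 CPM in miR3124_mimic, 6826 and 6435 CPM in miR200b_mimic and 5744 and 5589 CPM in the mixed group. The 6 sums lay below the other 4, but the inhibitor group itself was below miRcontrol (the median of the list was -0.30 on the log2 scale). In the fit of 2 conditions 21 of the 29 genes were lower (4.5% of all genes), and in limma-voom with the block 9 were (0.752%). CDC20, the activator of the anaphase-promoting complex, changed most evenly, with 242 to 258 CPM without a mimic and 164 to 183 CPM with one. KIF11, the motor of spindle pole separation, had 299 and 291 CPM in miRcontrol, 235 and 226 CPM in miR92b_inhibitor and 145 to 190 CPM with a mimic. MKI67, the proliferation marker Ki-67, fell by the pooled test (log2 fold change -0.67 ± 0.02) but not in all 6 pairs, since it had 810 and 811 CPM in miR200b_mimic and 866 and 829 CPM in miR92b_inhibitor.

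Of 33 genes of S phase and replication, 27 were lower (26.8% of all genes) and 1 was higher (25.5%), CCNE1, cyclin E1, with a log2 fold change of 0.63. The median was -0.24, and 11 were lower in all 6 pairs (2.94% of all genes). RRM2, a subunit of ribonucleotide reductase, had 436 to 503 CPM without a mimic, 206 and 197 CPM in miR3124_mimic, 361 and 339 CPM in miR200b_mimic and 302 and 301 CPM in the mixed group. MCM10, a replication initiation factor, had 82.1 to 88.7 CPM against 52.2 to 63.3 CPM, and E2F1, the transcription factor of the G1 to S transition, 95.2 to 101 CPM against 64.9 to 79.0 CPM. In the fit of 2 conditions 10 of the 33 were lower (4.5% of all genes). In limma-voom with the block 4 were (0.752%), and E2F1 lost its call there (adjusted p = 0.0707). Histone genes were looked at after HIST1H2BH, HIST1H1B and HIST1H2BF had been named by the rule, so their list was chosen on these values. Of 39 tested genes with HIST symbols, 30 were lower (26.8% of all genes), 15 of them at a fold of 2 (0.867%), with a median of -0.91. Their sum was 113 to 136 CPM without a mimic and 82.7 to 96.3 CPM with one. Most histone mRNAs lack a poly(A) tail, so poly(A) selection captures only a part of them.

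**Figure D3:**
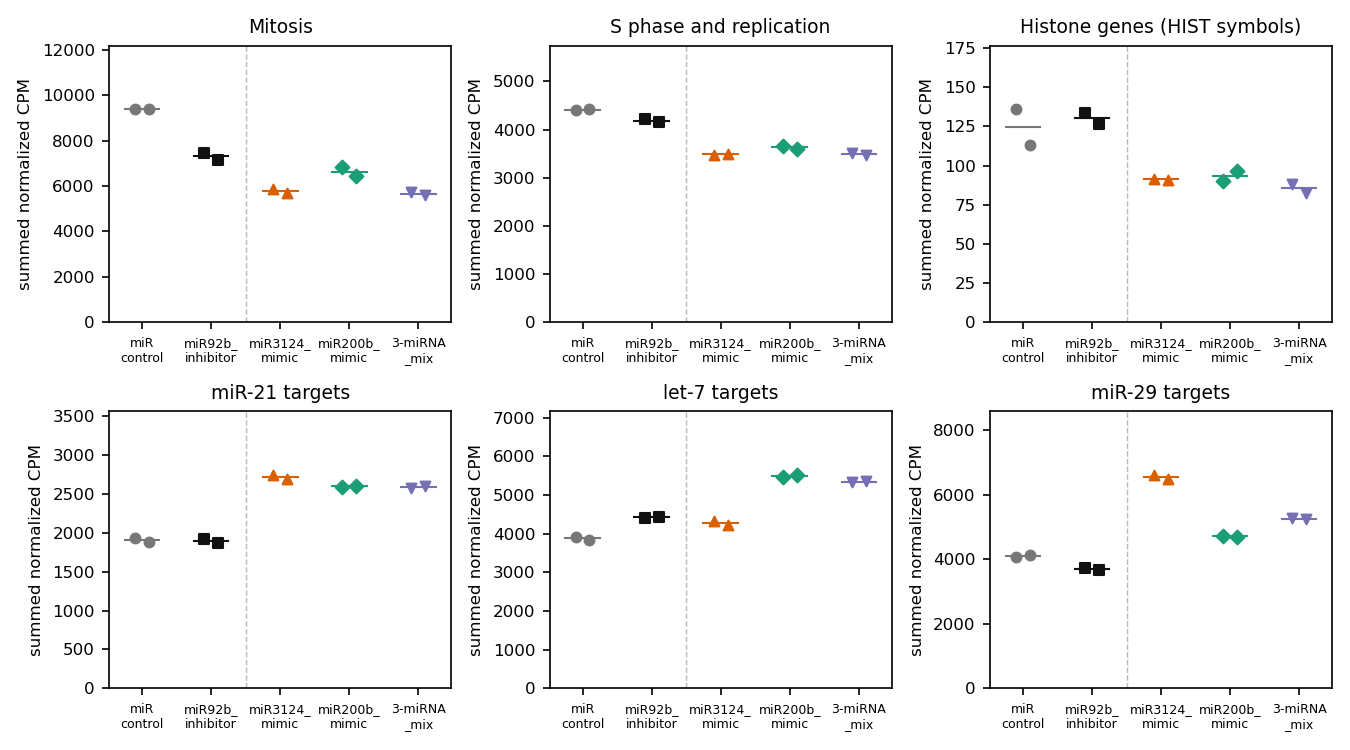
Summed normalized CPM of 6 gene lists in each library (points) with the mean of each group (bar); the dashed line divides groups without a mimic (left) from groups with a mimic (right), and the axes start at 0. Mitosis and S phase sums are lower and miR-21 and miR-29 target sums higher in all 6 libraries with a mimic, while the let-7 target sums of miR3124_mimic (4316 and 4213 CPM) lie below those of miR92b_inhibitor (4416 and 4431 CPM).

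The promoters of the mitosis genes were also searched for motifs. The motif share of this list is a property of its members and would be the same whatever these libraries showed. Only 13 of the 29 mitosis genes were lower in all 6 pairs, so not all holders of a motif were. In RefSeq promoters (250 bases before to 50 after the start, GRCh38.p14), the cell cycle homology region motif TTTGAA, on either strand, was found in 17 of the 24 mitosis genes with an entry (70.8%), in 1 of 28 S phase genes (3.57%), in 9.7% of the 10434 promoters of tested genes and in 15.4% of all 27305 promoters. CCAAT on either strand was found in 83.3%, 57.1%, 36.4% and 35.7% of them. Of all promoters of genes lower in all 6 pairs 17.4% held TTTGAA, and of those higher 8.63%. These are matches of letters and no evidence of binding. The stretches below are shown for mitosis genes lower in all 6 pairs, with the motif or its reverse complement in capitals.
CDC20: acggttggatTTTGAAggagccaata
CENPF: ctgcgggcagTTTGAAttag
KIF11: ctgtctctttTTCAAAttgaggcgcc
NUSAP1: gcgccagggaTTTGAAccgcgctgac
DLGAP5: gtgcggcaagTTTGAAtttcgtggag
They lie at chr1:43358906-43358931 (CDC20, plus strand), chr1:214603225-214603244 (CENPF, plus), chr10:92593092-92593117 (KIF11, plus), chr15:41332884-41332909 (NUSAP1, plus) and chr14:55191567-55191592 (DLGAP5, minus), within the 300 bases around the start.

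Published targets of microRNAs that are abundant in many epithelial and mesenchymal cells were mostly higher with a mimic, although neither mimic carries their seeds. Their mature sequences, with the seed in capitals, were the following.
let-7a-5p: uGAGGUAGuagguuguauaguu
miR-21-5p: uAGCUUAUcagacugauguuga
miR-29a-3p: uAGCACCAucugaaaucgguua
miR-16-5p: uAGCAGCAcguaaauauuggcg
Whether BEAS2B cells express these microRNAs was not measured here. Of 23 tested miR-21 targets 15 were higher (25.5% of all genes) and 1 lower (26.8%), with a median of 0.44. In all 6 pairs 8 were higher (4.31% of all genes). The sum of the 23 was 1866 to 1927 CPM without a mimic and 2580 to 2737 CPM with one. TGFBR2, the type 2 receptor of TGF-beta, had 409 to 479 CPM against 671 to 840 CPM (log2 fold change 0.78 ± 0.02), and STAT3 had 118 to 123 CPM against 171 to 210 CPM (0.64 ± 0.03). YOD1, a deubiquitinase gene with 3 seed matches, had 34.7 to 44.9 CPM against 50.9 to 135 CPM, and lost its call in limma-voom with the block (adjusted p = 0.0565). PDCD4, a translation inhibitor and a classic target, was higher by 0.58 in the pooled test but did not pass all 6 pairs.

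Of 26 let-7 targets 19 were higher (25.5% of all genes) and 5 lower (26.8%), with a median of 0.35. In all 6 pairs 9 were higher (4.31%) and 1 lower (2.94%), DNA2, a helicase and nuclease (-0.48, adjusted p = 0.0811 in limma-voom with the block). HMGA2, a chromatin protein regulated by let-7, had 109 to 119 CPM in miRcontrol, 202 and 221 CPM in miR92b_inhibitor and 256 to 393 CPM with a mimic. ARID3B, a DNA-binding protein, had 14.4 to 17.1 CPM against 25.1 to 55.2 CPM, and CCND2, cyclin D2, 1.85 to 3.15 CPM against 5.23 to 10.2 CPM. CCND1, cyclin D1, and PLAGL2 were lower, by 0.40 and 0.08 on the log2 scale. Of 32 miR-29 targets 27 were higher (25.5% of all genes) and 3 lower (26.8%), with a median of 0.45. This list was uneven: its median was 0.83 in miR3124_mimic and -0.03 in miR200b_mimic, each against miRcontrol. The 6 that were higher in all 6 pairs (4.31% of all genes) were CDK6, COL1A1, COL4A1, SPARC, TDG and TET2. SPARC, a collagen-binding matrix protein, had 630 to 653 CPM without a mimic, 1540 and 1522 CPM in miR3124_mimic and 1051 to 1097 CPM in the other 4 libraries. CDK6, a G1 kinase on the lists of let-7, miR-29 and miR-15/16, had 242 to 269 CPM against 418 to 682 CPM. Of 19 miR-15/16 targets 11 were higher (25.5% of all genes) and 3 lower (26.8%), with a median of 0.29. WEE1, the kinase that holds back entry into mitosis, had 52.3 to 56.3 CPM against 73.6 to 108 CPM. The lists share members, and in limma-voom with the block 5 miR-21, 6 let-7, 5 miR-29 and 4 miR-15/16 targets were higher (1.38% of all genes).

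Seed matches of some of the target genes were read from GENCODE v29 (GRCh38) with 7 bases on each side. The coding transcript of each gene was the one whose 3′UTR was used in the seed counts. Capitals mark the match to bases 2 to 8. CDC25A is a further member of the let-7 list. No let-7 match is given for HMGA2, CCND2 or CDK6, although they are on that list. Other transcripts of a gene were not read, so a match held only there would be missed. CCND2 is given with a miR-16 match and CDK6 with a miR-29 match.
SPARC, miR-29: gcccattTGGTGCTggccatt
COL1A1, miR-29: gaatcacTGGTGCTatagaaa
CDK6, miR-29: gtccacaTGGTGCTctccatc
ARID3B, let-7: taaacctCTACCTCttcacac
CDC25A, let-7: cttaaacCTACCTCccacact
TGFBR2, miR-21: tcataggATAAGCTgtgttag
STAT3, miR-21: gtacataATAAGCTtaactga
YOD1, miR-21: ttttccaATAAGCTatggtaa
WEE1, miR-16: ggtggtgTGCTGCTtatagtt
CCND2, miR-16: cagagtgTGCTGCTattttat
The SPARC match lies at chr5:151661371-151661391 on the minus strand, the TGFBR2 match at chr3:30691798-30691818 on the plus strand and the WEE1 match at chr11:9588860-9588880 on the plus strand. Matches were held by 31 of the 32 miR-29, 20 of the 23 miR-21, 18 of the 26 let-7 and 17 of the 19 miR-15/16 targets.

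Seed matches were then counted in all 12236 tested genes with a 3′UTR (82.2%), so that the result does not rest on chosen targets. Genes with a match to any of 14 such microRNAs had a higher median log2 fold change than genes without it for 14 of 14 seeds, by 0.0275 (miR-31-5p) to 0.0827 (miR-29a-3p). The difference was 0.0678 for let-7a-5p and 0.0578 for miR-16-5p. It was above 0 for all 14 seeds in each of the 3 mimic-receiving groups, and for 7 of 14 in miR92b_inhibitor against miRcontrol. The size was small beside single-gene changes and was largest in miR3124_mimic, with a median over the seeds of 0.077, beside 0.0285 in miR200b_mimic and 0.0313 in the mixed group. Between the 2 libraries of a group the same quantity had an SD from 0.00253 for miR-29a-3p to 0.0129 for miR-26a-5p, whose difference was 0.0305. The share of genes higher in all 6 pairs was 9.25% with a miR-29a-3p match and 4.29% without one.

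A seed match also marks a long 3′UTR, and genes with long 3′UTRs were higher. The median log2 fold change was -0.025 in genes with short 3′UTRs (up to 771 bases), -0.0044 in a middle class of about equal size and 0.0208 in genes with long 3′UTRs (from 2174 bases). Within these 3 classes the difference was above 0 for 13, 13 and 14 of the 14 seeds. Seeds of 6 microRNAs that are typical of muscle, heart, liver or blood cells, added after the first values were seen, had differences above 0 as well, from 0.0172 (miR-223-3p) to 0.0429 (miR-208a-3p), with a median of 0.0324 beside 0.039 for the 14. Within the 3 classes of length these were above 0 for 5, 5 and 6 of the 6. Their median was 0.0512 in the short class, beside 0.0391 for the 14 seeds. It was 0.0093 beside 0.0225 in the middle class and 0.0177 beside 0.0249 in the long class. In miR3124_mimic it was 0.0545 beside 0.077, in miR200b_mimic 0.0151 beside 0.0285 and in the mixed group 0.0168 beside 0.0313. The ranges of the 6 and of the 14 seeds overlap, and no test of their difference was made. The mimics' own seeds went the other way. The 76 genes with a miR-3124-5p match had a median -0.41 below the rest in miR3124_mimic, -0.31 in the mixed group and -0.021 in miR200b_mimic. The 2386 genes with a miR-200b-3p match had -0.083 in miR200b_mimic, -0.025 in the mixed group and 0.043 in miR3124_mimic.

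**Figure D4:**
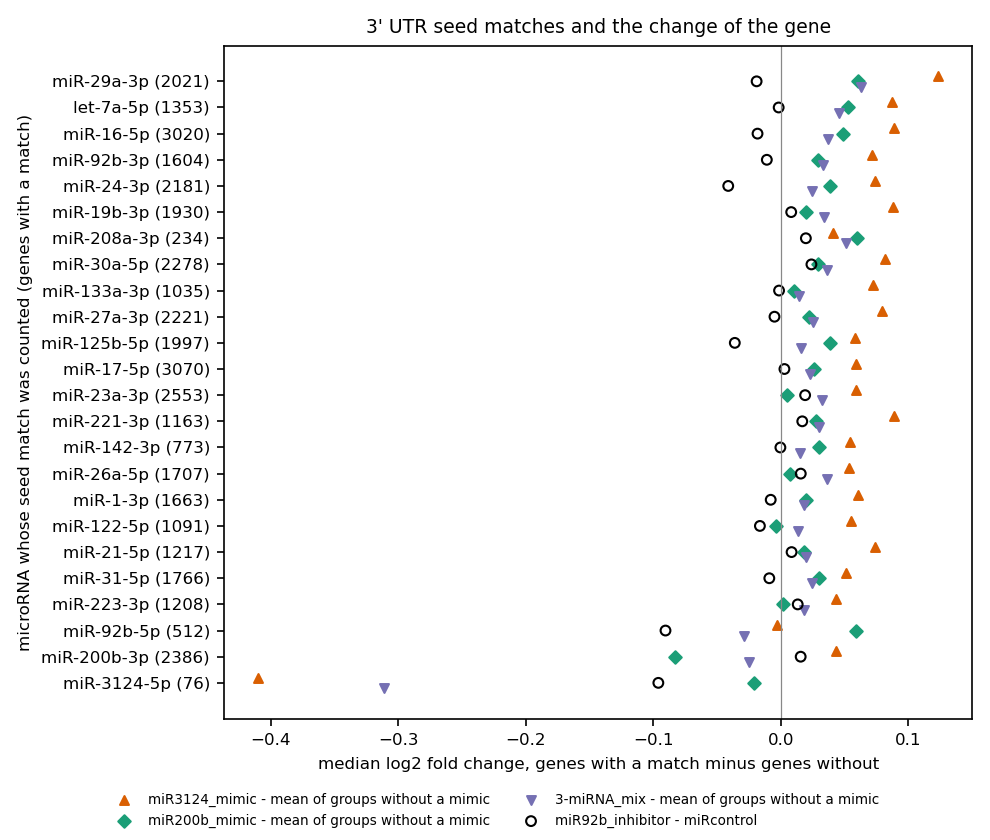
Median log2 fold change of genes with a 7-base 3′UTR seed match minus that of genes without it, for 24 microRNA seeds (rows, with the number of genes that hold the match), in each mimic-receiving group against the mean of the groups without a mimic (coloured) and in miR92b_inhibitor against miRcontrol (open circles). The points of the 14 seeds of common microRNAs lie above 0 in all 3 groups, between 0.005 and 0.123, and the miR-3124-5p seed lies lowest in the 2 groups with that mimic.

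Lists of RNA sensing, cytokines and cholesterol synthesis differed between the 2 groups without a mimic as well, and no member of these 3 lists was called in all 6 pairs. Of 37 tested genes of RNA sensing and the interferon response 13 were higher and 4 lower with a mimic, with a median of 0.18 (25.5% of all genes were higher and 26.8% lower). Against miRcontrol the list's median was 0.28 in miR3124_mimic, 0.15 in miR200b_mimic and 0.46 in the mixed group, but it was also 0.39 in miR92b_inhibitor, which had no mimic. Of 22 NF-kappaB genes 6 were higher and 6 lower, and the median was 0.92 in miR92b_inhibitor against miRcontrol. CXCL8, the chemokine interleukin 8, had a mean of 23.1 CPM in miRcontrol and 102 CPM in miR92b_inhibitor, and of 29.2, 9.01 and 38.0 CPM in miR3124_mimic, miR200b_mimic and the mixed group. Of 24 cholesterol synthesis genes 16 were higher and 2 lower, with medians of -0.12, 0.05 and -0.41 in the 3 groups against miRcontrol and -0.72 in miR92b_inhibitor. Against miRcontrol the list was thus lower in the mixed group, and the pooled median of 0.23 goes with the low level of the inhibitor group.

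Of 23 genes of the integrated stress response 6 were higher and 14 lower (median -0.16, beside 25.5% and 26.8% of all genes), and GDF15, a stress-induced cytokine, and PSAT1, an enzyme of serine synthesis, were lower in all 6 pairs. In limma-voom with the block PSAT1 kept its call (adjusted p = 0.0173) and GDF15 lost it (0.173). Of 22 p53 targets 6 were higher and 6 lower (median 0.03), and BTG2, PLK3 and ZMAT3 were higher and PMAIP1, a proapoptotic BCL2 family gene, lower in all 6 pairs. The shares of p53 targets called were near those of all genes, and these 4 lost their calls in limma-voom with the block (adjusted p from 0.0541 to 0.133). Of 27 endosome and lysosome genes 10 were higher and 8 lower (median 0.05). GABARAPL1, an autophagosome protein of the ATG8 family, had means of 14.03 and 9.45 CPM without a mimic and 37.5, 21.4 and 17.0 CPM in miR3124_mimic, miR200b_mimic and the mixed group, and it was higher in all 6 pairs with ATP6V1A and RAB5A. CAV1, the coat protein of caveolae, was lower in all 6. These 4 lost their calls in limma-voom with the block (adjusted p from 0.0886 to 0.301).

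Epithelial markers had a median of 0.82, with 14 of 19 higher (25.5% of all genes) and 1 lower (26.8%), KRT19, but the rise was mostly that of the groups with the miR-200b-3p mimic. Its median against miRcontrol was 1.16 in miR200b_mimic, 0.85 in the mixed group and 0.20 in miR3124_mimic. The 4 genes higher in all 6 pairs were CLDN1, KRT8, KRT17 and KRT18, of which KRT17 lost its call in limma-voom with the block (adjusted p = 0.0803). Of 16 mesenchymal markers 5 were higher and 8 lower. VIM, the intermediate filament vimentin, was lower in all 6 pairs, with 3707 to 4247 CPM without a mimic, 827 and 799 CPM in miR3124_mimic, 2972 and 2992 CPM in miR200b_mimic and 2684 and 2775 CPM in the mixed group, whereas SPARC and COL1A1 were higher in all 6. VIM lost its call in the fit of 2 conditions (adjusted p = 0.144) and in limma-voom with the block (0.122), and SPARC and COL1A1 kept theirs. Of 31 miR-200b targets 18 were lower and 7 higher, with medians of -0.29 in miR200b_mimic and 0.05 in miR3124_mimic against miRcontrol. MYLK, myosin light chain kinase, and ERBIN were lower in all 6 pairs, miR3124_mimic included, although that group did not receive miR-200b-3p, and lost their calls in limma-voom with the block (adjusted p = 0.0612 and 0.127). Of 13 reference transcripts 4 were higher and 7 lower (median -0.10). GAPDH had 3090 to 3945 CPM with a mimic and 3641 to 3995 CPM without. ACTB was not stable, with 1686 and 1687 CPM in miR3124_mimic and 5889 to 7169 CPM without a mimic.

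**Figure D5:**
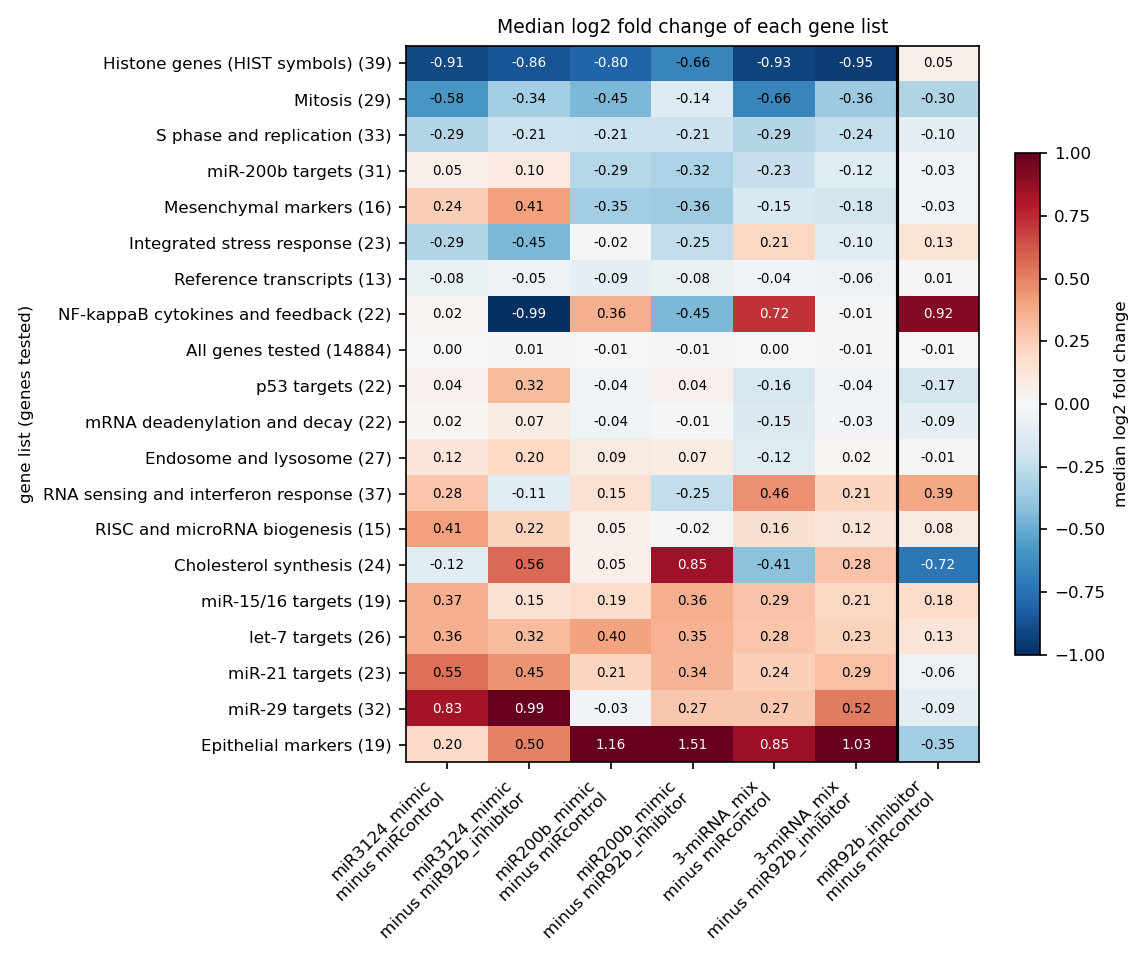
Median log2 fold change of each gene list with at least 10 tested genes (rows, with the number tested) in the 6 pairs of a mimic-receiving group and a group without a mimic, and, right of the line, in miR92b_inhibitor against miRcontrol. Mitosis, S phase and histone lists are below 0 and let-7, miR-21 and miR-15/16 target lists above 0 in all 6 pairs, whereas the NF-kappaB list is above 0 against miRcontrol and below 0 against miR92b_inhibitor in all 3 mimic-receiving groups.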

How the data were processed

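BEAS2B total RNA was poly(A)-selected and made into libraries with a directional kit, and mRNA-seq was deposited for 5 groups of 2 libraries. The files hold whole-number read counts per gene as the authors made them. GRCh38 and TopHat are named in the submitters' processing notes, and the counter, its strand setting and the annotation are not given in the sources used here. Of 58173 rows, 5771 repeated a symbol, and counts of rows with the same symbol were summed to 52402 symbols. Read-through symbols such as RPS10-NUDT3 share reads with other genes. Floors at totals of 13587666 to 18503890 counts cover counting error only. The SEs come from edgeR's test and include the spread between libraries of a group.

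edgeR 4.0.16 (R 4.3.3) was used with DESeq2-style (RLE) size factors, its default filter on low counts by group (14884 genes kept) and quasi-likelihood tests of 5 group means. The contrast was the mean of the 3 mimic-receiving groups minus the mean of the 2 groups without a mimic, called at a fold of at least 2 and a Benjamini-Hochberg adjusted p under 0.05. Lists were counted at the adjusted p alone. The rule of 6 pairs, the comparisons without and with the inhibitor and their interaction came from the same fit. Levels are normalized CPM, which scale with transcript length, so levels of different genes are not compared. The floor is 3 counts per library (0.177 CPM).

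Genes were named by rule: the 12 largest rises and falls by the weakest of the 6 pairs at a mean of at least 1 CPM, the 3 largest pooled changes in each direction that failed a pair, the 3 largest interactions in each direction, the called or defining members of 20 lists, and ZEB1 and ZEB2. The members and lists were chosen with earlier results of these data known. The 8 rises and falls at 20 CPM or more, the evenly changed genes, HAS2, the HIST list and the seeds of other tissues were added after values were seen. Replicates within a group differed by more than sampling noise (chi-square over degrees of freedom 1.77 to 2.7).

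3′UTRs from GENCODE v29 and promoters, genes and microRNAs from RefSeq (GRCh38.p14) were matched by symbol. Alternatives were TMM, library totals, DESeq2 1.42.0, filters, a replicate block, libraries or groups left out, a fit of 2 conditions, and limma-voom (limma 3.58.1) with the group as a random block. In the last, the correlation within groups was 0.794.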

Additional observations from a re-analysis of the deposited data

Results flagged for a closer look

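These genes had a mimic effect that differed between the comparison with the inhibitor (mixed group minus miR92b_inhibitor) and the one without it (mean of the single mimics minus miRcontrol), by a test of the interaction in edgeR's quasi-likelihood fit. The 2 comparisons also differ in the number of mimics given, and miR92b_inhibitor and miRcontrol differ at baseline in most of these genes.

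Of the 9 genes called among the consistent changes, 7 had a larger rise with the inhibitor. The log2 difference was 1.28 for ITGB4 (adjusted p = 7e-17), 1.15 for F11R, a tight junction adhesion protein (5.98e-16), 1.05 for SPINT2, a protease inhibitor (2.22e-10), 1.26 for MPZL2, an epithelial adhesion protein (1.32e-06), 1.47 for MISP, a spindle and actin protein (0.00143), 1.18 for SPNS2, a sphingosine 1-phosphate transporter (0.0312), and 2.23 for ADGRF1 (0.0443). F11R showed the pattern of levels, with 44.9 and 44.2 CPM in miRcontrol, 27.2 and 26.4 CPM in miR92b_inhibitor, 64.6 and 64.0 CPM in miR3124_mimic, 218 and 219 CPM in miR200b_mimic and 162 and 154 CPM in the mixed group. The mean over the single mimics is therefore a mean of a small and a large change.

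PALLD, an actin-binding protein gene, had a log2 difference of 1.02 (adjusted p = 2.77e-17), with -1.13 without and -0.11 with the inhibitor. It was lowest in miR3124_mimic, at 55.7 and 52.5 CPM, beside 164 and 168 CPM in miRcontrol. ANGPTL4 had -1.31 (0.000809).

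Outside the consistent changes, VAV1, a guanine nucleotide exchange factor of blood cells, had a log2 difference of 4.01 (0.00106) and MYO1D, an unconventional myosin, 2.99 (0.0248), both at under 4 CPM in every library. The VAV1 call was lost without miRcontrol replicate 1 (adjusted p = 0.0674), and the MYO1D call without either miRcontrol library, either miR92b_inhibitor library or replicate 1 of the mixed group (0.0533 to 0.142). DHRS2, a short-chain dehydrogenase gene, had -2.02 (0.00298), with 3.07 and 3.23 CPM in miR3124_mimic and 0.664 and 0.592 CPM in the mixed group. The uncharacterised LOC107986196 had -2.06 (0.00336), with 9.63 and 10.8 CPM in miR92b_inhibitor beside 0.515 and 0.239 CPM in miRcontrol, and lost its call without miRcontrol replicate 2 (0.0624). The read-through symbols RPS10-NUDT3 and COMMD3-BMI1 had 5.49 (0.00868) and -10.7 (0.000479). Without miRcontrol replicate 2 the RPS10-NUDT3 difference was 0.142 (adjusted p = 1). COMMD3-BMI1 had 4.92 and 0 CPM in miR3124_mimic and 7.70 and 0 CPM in miR200b_mimic, so a single library decides each of these means, and the sharing of reads with BMI1 and COMMD3 was not tested.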

How the results depend on the processing

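Other normalizations moved little: the pooled calls were 432 higher and 129 lower with TMM and 437 and 127 with library totals. With a filter of at least 10 counts in every library 12585 genes were tested. The pooled calls were then 237, those without the inhibitor 230 and those with it 342, while 1091 genes passed all 6 pairs. This filter removes genes with under 10 counts in any library, where many of the pooled calls at a fold of 2 lay. DESeq2 called 365 genes higher and 106 lower, and 22 interactions in place of 100. The fit of 2 conditions gave 295 and limma-voom with the group as a block 74 pooled calls. The 6-pair genes, 1078, became 165 with a fold of at least 1.5 in each pair and 2010 by an adjusted p with no overlap. With a group left out, fewer pairs have to pass, and they numbered 2831 without miRcontrol, 1815 without miR92b_inhibitor, 1918 without miR3124_mimic and 2208 without miR200b_mimic. Leaving out 1 library at a time gave 588 to 615 pooled calls, 902 to 999 genes in all 6 pairs, 437 to 510 calls without and 558 to 632 with the inhibitor, and 70 to 107 interactions. No direction reversed. The interactions of VAV1 (adjusted p = 0.0674 without miRcontrol replicate 1) and MYO1D (0.0533 to 0.142) were lost without some libraries, LOC107986196 (0.0624) and RPS10-NUDT3 (0.142 in place of 5.49, adjusted p = 1) without miRcontrol replicate 2, and those of COMMD3-BMI1 (-6.53 and -6.22, adjusted p = 1) without miR3124_mimic replicate 1 or miR200b_mimic replicate 1. In the fit of 2 conditions DUSP19 (0.0888), ACTN1 (0.15), RPS10-NUDT3 (0.819) and ZEB2 (0.426) lost their calls. Replicate numbers did not pair the samples (correlations of deviations from -0.041 to 0.0426 over 10 pairs of groups), and a replicate block gave 429 genes higher and 132 lower, with 1074 of the 6-pair genes shared. RPS10-NUDT3 missed the threshold in DESeq2 (0.0611). The sizes of seed differences moved by more than the spread for 12 of 24 seeds within 3′UTRs of 200 to 5000 bases. Genes near 1 count per library limit what depth can show.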
